A study of Mus musculus with 13 samples.

Results

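The retinoid metabolism genes described here were 9 of the 53392 genes in a table of liver RNA-seq counts, chosen by name from a retinoid list: Rdh5, Rdh10, Rdh11, Rdh16, Dhrs3, Rbp4, Cyp26a1, Rarb and Lrat. Rdh5 was picked on its measured values, as the member that was highest in transgene-negative livers on doxycycline (Dox) against both transgenic groups. Its difference between ASAH- and ASAH+ mice is therefore given as a description, without a test. Whole-liver RNA came from 13 female mice aged 8 to 14 weeks that received 28% of their calories from ethanol (Etoh) for 4 weeks. All mice carried Albumin-Cre and a Rosa26 reverse tetracycline transactivator (rtTA) behind a floxed stop, which confines rtTA to hepatocytes. ASAH+ mice also carried TRE-ASAH1, a ceramidase transgene that is transcribed when Dox activates rtTA, and ASAH- littermates did not. The groups were 4 ASAH- mice that had Dox (200 mg/l) with their Etoh, 5 ASAH+ mice treated alike, and 4 ASAH+ mice that had Etoh alone. They are called ASAH- Dox, ASAH+ Dox and ASAH+ no-Dox mice. No ASAH- mice without Dox were analysed here, and no group was without alcohol. The libraries held 17819486 to 35358711 counted reads per mouse, with a median of 24454043. Levels are given as CPM, which are counts scaled to a common library size by the TMM method, and p-values reflect the spread between these individual mice.

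Retinol (vitamin A) is taken up by hepatocytes and leaves the liver bound to RBP4, while hepatic stellate cells store it as retinyl esters made by LRAT. Retinol dehydrogenases oxidize retinol to retinaldehyde, reductases return it to retinol, and aldehyde dehydrogenases convert retinaldehyde to retinoic acid. Retinoic acid acts through nuclear receptors, among them RARβ, and CYP26A1 breaks it down; the genes of both proteins are themselves induced by retinoic acid.

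Asah1 was examined first as a check on the labels, because sample titles in the ASAH+ groups contradict the descriptions and induction labels, by which the mice were grouped, as to which received Dox. Asah1 was 48.7, 40.04, 53.7 and 55.0 CPM in the ASAH- Dox mice and 46.8, 44.2, 46.8 and 48.3 CPM in the ASAH+ no-Dox mice. In the ASAH+ Dox mice it was 10310, 9668, 15130, 12720 and 15940 CPM. Asah1 RNA was thus high in the 5 mice labelled as induced and in no other mouse, with a log2 fold change of 8.01 ± 0.204 (SE) between ASAH+ Dox and ASAH- Dox mice (edgeR quasi-likelihood, Benjamini-Hochberg adjusted p = 1.24e-11).

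No retinoid member that was tested passed the threshold (adjusted p under 0.1 over 14317 genes tested) in any of the 3 comparisons. All 9 members passed the filter on low counts. Between ASAH+ Dox and ASAH- Dox mice, which differ in the transgene, edgeR called 0 of the 8 members other than Rdh5, beside 0.0140% of all genes tested. Between ASAH+ Dox mice and ASAH+ no-Dox mice, which differ in Dox and in transgene induction, it called 0 of 9 members, again beside 0.0140%. Between ASAH- Dox mice and ASAH+ no-Dox mice, neither of which had high Asah1, it called 0 of 8, beside 0.0140%. At an unadjusted p under 0.05 these counts were also 0, 0 and 0, beside 2.86%, 7.29% and 9.19% of all genes tested, shares at which few or none of 8 or 9 genes would be counted. DESeq2 and limma-voom called 0 of the same members in each comparison. With against without Dox, DESeq2 on all 13 mice gave an adjusted p to 4 of the 9 members and none to Rdh5, Rdh10, Cyp26a1, Rarb and Lrat, which it could not call; on the compared groups alone it gave one to 9 of 9. Mice of the groups compared overlapped for each of these members, while groups did not overlap for 0.887%, 2.58% and 5.50% of all genes tested in the 3 comparisons, in the order given. The comparisons share mice with each other, so they are not independent.

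Among the 8 members, 5 had log2 fold changes above 0 and 3 below 0 in ASAH+ Dox against ASAH- Dox mice, with a median of 0.14, where the median of all genes tested was -0.0023. With and without Dox in ASAH+ mice, 8 of 9 were above 0 and 1 was below, with a median of 0.11 beside 0.013 for all genes. For ASAH- Dox mice against ASAH+ no-Dox mice, 5 of 8 were above 0, and the median was 0.021 beside 0.016. The members therefore differed in both directions, and no difference passed the test where one was made. The largest belonged to Cyp26a1, at 0.87 ± 0.622 (SE) in the first comparison and -0.71 ± 0.651 in the last.

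**Figure D1:**
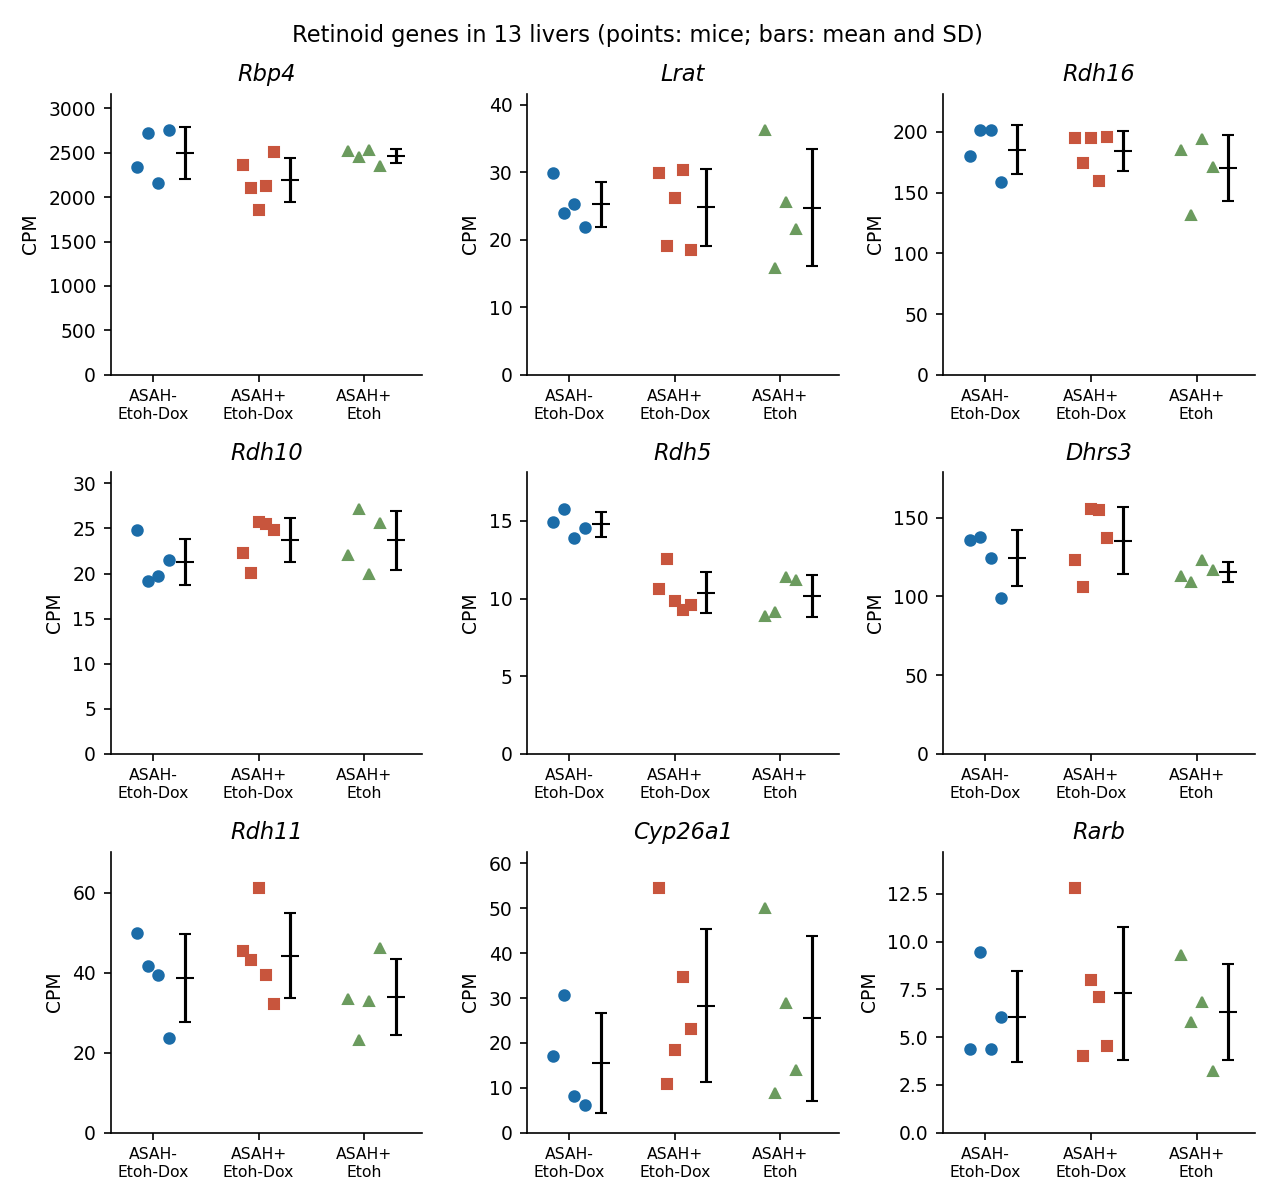
Level of each retinoid gene in CPM (vertical axes, from 0) in 4 ASAH- Dox mice, 5 ASAH+ Dox mice and 4 ASAH+ no-Dox mice; points are mice, and black bars are the mean and SD. Rdh5 lay between 13.9 and 15.8 CPM in the ASAH- mice, above all ASAH+ mice, and Cyp26a1 ranged from 6.29 to 54.5 CPM across the 13 livers.

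Per length of the gene's exons, Rbp4 was by far the most abundant member, with 1763 ± 190.4 CPM per kilobase (SD over 13 mice). Dhrs3 followed with 43.0 ± 6.05 and Rdh16 with 29.0 ± 3.33 CPM per kilobase, and each of these 3 was above the next in all 13 mice. Cyp26a1 (11.9 ± 7.87) and Rdh11 (11.4 ± 3.04 CPM per kilobase) could not be ordered, since Cyp26a1 was the higher in only 6 of 13 mice. Rdh10 had 5.52 ± 0.665, Lrat 4.66 ± 1.06 and Rdh5 4.15 ± 0.863 CPM per kilobase, where neighbours in the order were not apart in every mouse: Rdh10 was above Lrat in 11 and Lrat above Rdh5 in 8. Rarb was lowest, with 1.26 ± 0.517 CPM per kilobase, below Rdh5 in 13 of 13 mice.

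Rbp4, the retinol carrier that hepatocytes secrete, had 2335, 2721, 2157 and 2753 CPM in the ASAH- Dox mice. It had 2362, 2100, 1857, 2130 and 2508 CPM in the ASAH+ Dox mice, and 2516, 2447, 2534 and 2352 CPM in the ASAH+ no-Dox mice. The lowest 3 mice were ASAH+ Dox, but that group reached into the range of both others. The log2 fold change was -0.19 ± 0.0992 (SE) for ASAH+ Dox against ASAH- Dox mice and -0.17 ± 0.0993 for ASAH+ mice with against without Dox (edgeR, Benjamini-Hochberg adjusted p = 0.9997 and 0.744). Lrat, which esterifies retinol for storage in stellate cells, had 29.9, 23.9, 25.3 and 21.9 CPM in the ASAH- Dox mice. It had 29.9, 19.1, 26.1, 30.3 and 18.5 CPM in the ASAH+ Dox mice and 36.2, 15.8, 25.5 and 21.6 CPM in the ASAH+ no-Dox mice. Its highest and its lowest mouse were both ASAH+ no-Dox, and the group means of 25.2 ± 3.40, 24.8 ± 5.71 and 24.8 ± 8.63 CPM (SD) were closer together than the mice of any group.

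Rdh16 encodes a liver retinol dehydrogenase that also acts on steroids. Its range was 158.6 to 201.3 CPM in ASAH- Dox mice, 159.5 to 195.7 in ASAH+ Dox mice and 131.9 to 193.8 in ASAH+ no-Dox mice. The lowest value, 131.9 CPM, belonged to mouse 2 of the ASAH+ no-Dox group, and the other mice of that group lay within the range of both Dox groups. The log2 fold changes of Rdh16 were -0.011 ± 0.116 (SE), 0.11 ± 0.116 and 0.12 ± 0.122 in the 3 comparisons, in the order given above. Of the 31-base words in Rdh16 transcripts, 22.4% also occur in other genes, foremost in Rdh9 (9.85%), so the division of reads within this gene family is uncertain. Rdh10 encodes the retinol dehydrogenase that makes retinaldehyde in the embryo and in many adult tissues. It had 19.2 to 24.9 CPM in ASAH- Dox mice, 20.1 to 25.7 in ASAH+ Dox mice and 19.9 to 27.1 in ASAH+ no-Dox mice. Both ASAH+ groups had a mean of 23.7 CPM, and the ASAH- mice had 21.3 ± 2.57 CPM (SD), a difference that did not pass the test (log2 fold change 0.15 ± 0.114, edgeR's Benjamini-Hochberg adjusted p = 0.9997).

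Rdh5 encodes the 11-cis retinol dehydrogenase known from the retinal pigment epithelium, and lies at chr10:128913593-128922888 (GRCm38) on the minus strand. In the ASAH- Dox mice it had 14.9, 15.8, 13.9 and 14.6 CPM. It had 10.6, 12.5, 9.87, 9.27 and 9.59 CPM in the ASAH+ Dox mice and 8.85, 9.12, 11.4 and 11.2 CPM in the ASAH+ no-Dox mice. All 4 ASAH- mice stood above all 9 ASAH+ mice, which is the pattern for which Rdh5 was chosen; such an order was found for 15 of 14317 genes tested, or 0.105%. Counts behind these values were 192 to 409 reads per mouse. As a description, the log2 fold change was -0.51 ± 0.111 (SE) for ASAH+ Dox against ASAH- Dox mice and 0.54 ± 0.119 for ASAH- Dox mice against ASAH+ no-Dox mice. Within ASAH+ mice, a comparison that did not enter the choice, Rdh5 was 10.4 ± 1.31 CPM (SD, n = 5) with Dox and 10.2 ± 1.36 (SD, n = 4) without. The 2 groups overlapped, and the log2 fold change of 0.034 ± 0.113 (SE) did not pass edgeR's test (Benjamini-Hochberg adjusted p = 0.970).

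Part of the Rdh5 signal cannot be separated from its neighbour Bloc1s1, which encodes a subunit of a complex in lysosome biogenesis. On the same strand the annotated exons of the 2 genes share 720 bases, or 25.6% of Rdh5, and 22.5% of the 31-base words of Rdh5 transcripts also occur in Bloc1s1. Bloc1s1 had 27.2, 33.1, 29.95 and 25.4 CPM in the ASAH- Dox mice. It had 29.5, 26.0, 26.8, 24.4 and 28.1 CPM in the ASAH+ Dox mice and 22.2, 19.98, 22.7 and 23.1 CPM in the ASAH+ no-Dox mice. Bloc1s1 was thus lowest in the mice without Dox, whereas Rdh5 was alike in both ASAH+ groups. Across the 13 mice the 2 genes had a Pearson r of 0.588 (Spearman rho 0.582), which was 0.329 without the 2 mice farthest from the median of Bloc1s1 and 0.313 with group means removed. Summed with Bloc1s1, the log2 fold change was -0.23 ± 0.0818 (SE) for ASAH+ Dox against ASAH- Dox mice, and the groups touched, with 39.9 to 48.8 CPM in ASAH- and 33.6 to 40.2 CPM in ASAH+ mice. With against without Dox in ASAH+ mice, the summed value was 0.22 ± 0.0827 (SE; edgeR, Benjamini-Hochberg adjusted p = 0.600), where Rdh5 alone had 0.034. For ASAH- Dox against ASAH+ no-Dox mice it was 0.44 ± 0.0869. Bloc1s1 had more counts than Rdh5 and weighs more in this sum. How the reads were divided between the genes was not tested.

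**Figure D2:**
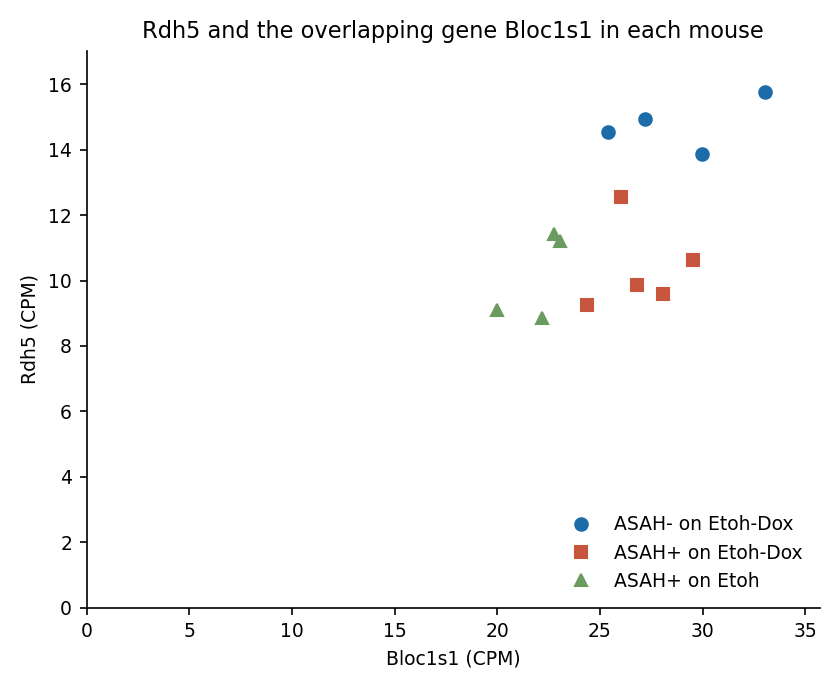
Rdh5 (vertical axis, CPM) against Bloc1s1 (horizontal axis, CPM) in each of the 13 mice, with 1 point per mouse and a symbol for each group. The 4 ASAH- mice lie at the top, at 13.9 to 15.8 CPM of Rdh5, and the 4 ASAH+ no-Dox mice lie at the left, at 19.98 to 23.1 CPM of Bloc1s1.

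Other genes near Rdh5 were counted after the values of Rdh5 were seen. Of 29 genes tested within 500000 bases of Rdh5, groups did not overlap for 1 gene between ASAH+ Dox and ASAH- Dox mice (Rab5b, log2 fold change 0.092 ± 0.0573), where the background was 0.887%, and the log2 fold changes of these 29 genes had a median of -0.011. Between ASAH- Dox mice and ASAH+ no-Dox mice groups did not overlap for 3 of the 29, beside 5.50% of all genes, and the median was -0.0016. Of these 3, Bloc1s1 was higher in the ASAH- mice, as Rdh5 was, and Rab5b and Dnajc14 were lower. With against without Dox it was 1 of 29, Bloc1s1, beside 2.58%. The genes whose log2 CPM was most like that of Rdh5 over the 13 mice were E430018J23Rik (Pearson r 0.878), Pkig (0.866), Pold4 (0.864), Acyp1 (0.851) and Prkd2 (0.810), out of 11111 genes ranked. Their Spearman rho values were 0.841, 0.890, 0.896, 0.857 and 0.758. With group means removed, r remained 0.873 for Acyp1 and was 0.359 for Prkd2, so the likeness of Prkd2 lay mostly in the difference between groups. These values describe likeness only, and no p was computed.

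Markers of hepatic stellate cells were, like Rdh5, high in the ASAH- mice, but did not follow Rdh5 from mouse to mouse within groups. All 14 genes of that list (without members) passed the filter, with Dcn the most abundant. Their summed level was 473.6, 485.3, 594.6 and 518.4 CPM in the ASAH- Dox mice. It was 440.5, 459.8, 460.9, 459.8 and 400.8 CPM in the ASAH+ Dox mice and 439.7, 392.2, 400.8 and 481.3 CPM in the ASAH+ no-Dox mice. The ASAH- mice were above every other mouse except 1, mouse 4 of the ASAH+ no-Dox group, which was above the lowest ASAH- mouse. Over the 13 mice the summed level and Rdh5 had a Pearson r of 0.644 (Spearman rho 0.742, r 0.586 without the 2 mice farthest from the median of the marker sum). With group means removed r was 0.048, so the value over all mice rested on the difference between groups, for which Rdh5 was chosen, and the ASAH- mouse with the highest marker sum had the least Rdh5 of its group. For Lrat r was 0.222 (rho 0.060, r -0.029 without 2 such mice, 0.223 with group means removed). In whole-liver RNA, more cells of a type and more RNA per cell cannot be told apart, and the part of stellate cells in the level of Rdh5 was not tested.

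The reductases that return retinaldehyde to retinol varied more between mice than between groups. Dhrs3, a retinaldehyde reductase that retinoic acid induces, had 136.2, 138.0, 124.7 and 99.1 CPM in the ASAH- Dox mice. It had 123.0, 106.3, 155.5, 155.2 and 137.1 CPM in the ASAH+ Dox mice and 113.1, 109.1, 123.5 and 116.7 CPM in the ASAH+ no-Dox mice. The highest 2 mice were ASAH+ Dox, yet another mouse of that group, at 106.3 CPM, lay below all ASAH+ no-Dox mice. The log2 fold change with against without Dox was 0.23 ± 0.123 (SE; edgeR, Benjamini-Hochberg adjusted p = 0.712). Rdh11, a reductase of the endoplasmic reticulum with broad expression, ranged from 23.6 to 49.9 CPM in ASAH- Dox mice, 32.3 to 61.1 in ASAH+ Dox mice and 23.1 to 46.1 in ASAH+ no-Dox mice. Its log2 fold changes were 0.20 ± 0.237, 0.39 ± 0.239 and 0.19 ± 0.251 (SE) in the 3 comparisons, and its spread within groups exceeded that of 93.7% of genes at a like level. The gene most like Dhrs3 over the 13 mice was Camk1d (Pearson r 0.931), and that most like Rdh11 was Pmvk (0.922).

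The phase of the liver clock differed widely between mice, and many genes varied with it. The log2 ratio of Dbp over Arntl, clock genes that peak at opposite times of day, ran from -0.96 to 6.49 in ASAH- Dox, -1.64 to 6.78 in ASAH+ Dox and 1.60 to 6.06 in ASAH+ no-Dox mice. An r beyond 0.5 in size with this ratio was found for 4 of the 9 members and for 24.4% of all 14317 genes tested (4 of 9 and 29.9% with group means removed). Over the 13 mice Dhrs3 had a Pearson r of -0.692 with it (Spearman rho -0.604, r -0.563 without the 2 mice farthest from its median), and Rbp4 had 0.603 (rho 0.456, r 0.444 without them). Rdh11 had -0.559 (rho -0.363, r -0.243 without them) and Rdh10 -0.541 (rho -0.522, r -0.416 without them). With group means removed the 4 values were -0.696, 0.647, -0.539 and -0.616. The groups overlapped in this ratio, and the part of the clock in these genes was not tested beyond its use as a covariate, with which no member was called.

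Cyp26a1, the retinoic acid hydroxylase, was the most variable member. It had 17.2, 30.6, 8.20 and 6.29 CPM in the ASAH- Dox mice. It had 54.5, 10.8, 18.5, 34.6 and 23.1 CPM in the ASAH+ Dox mice and 49.95, 8.91, 28.9 and 14.1 CPM in the ASAH+ no-Dox mice. Mouse 1 of each ASAH+ group was highest, each group also held a mouse under 11 CPM, and all 3 groups overlapped. The highest mouse had 8.66 times the level of the lowest, and the SD of log2 CPM within groups, 0.996, exceeded that of 99.4% of genes within 0.5 log2 units of its level. The group means were 15.6 ± 11.1, 28.3 ± 17.0 and 25.5 ± 18.4 CPM (SD). The log2 fold change of 0.87 ± 0.622 (SE) between ASAH+ Dox and ASAH- Dox mice was the largest of any member and did not pass edgeR's test (Benjamini-Hochberg adjusted p = 0.9997). It was 0.48 without mouse 1 of the ASAH+ Dox group and 1.43 without mouse 2 of the ASAH- Dox group.

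Rarb, the gene of retinoic acid receptor β, had 4.38, 9.44, 4.41 and 6.04 CPM in the ASAH- Dox mice. It had 12.8, 4.04, 7.99, 7.10 and 4.56 CPM in the ASAH+ Dox mice and 9.31, 5.82, 6.82 and 3.24 CPM in the ASAH+ no-Dox mice. In each group the mouse with the most Rarb was also the mouse with the most Cyp26a1: mouse 2 of the ASAH- group and mouse 1 of both ASAH+ groups. The log2 fold changes of Rarb were 0.27 ± 0.371, 0.21 ± 0.373 and -0.056 ± 0.395 (SE), and the groups overlapped throughout. Counts were low, 56 to 463 reads per mouse, and 34.1% of the annotated exon bases of Rarb overlap Top2b on the opposite strand. The libraries were prepared with a strand-specific kit, but whether counting used the strand is not given in the sources used here.

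Cyp26a1, Rarb and Lrat varied together between mice, a relation that was noticed in these data and received no test. Over the 13 mice the Pearson r of log2 CPM was 0.680 for Cyp26a1 and Rarb (Spearman rho 0.709), 0.651 for Cyp26a1 and Lrat (rho 0.654) and 0.513 for Rarb and Lrat (rho 0.560). With group means removed, r was 0.692, 0.750 and 0.528, so the relation was present within groups. Without the 2 mice farthest from the median of the first gene, r was 0.688, 0.646 and 0.454. These were 3 of 36 pairs of members, of which 5 had r above 0.5 and 3 had r below -0.5. Among 14316 other genes, Rarb ranked 73 by its correlation with Cyp26a1, and Lrat ranked 119. The genes most like each of them were others: Srr for Cyp26a1 (r 0.935), Adsl for Lrat (0.870), and for Rarb Adh1 (0.874), the class I alcohol dehydrogenase, which oxidizes both ethanol and retinol. Mouse 1 of the ASAH+ Dox group, highest for Cyp26a1 and Rarb, also had the most counted reads. Rarb had an r of 0.628 with total counts (rho 0.407), which was 0.725 with group means removed. It was 0.061 without the 2 mice farthest from the median of total counts. For Cyp26a1 the r with total counts was 0.113 (rho -0.093), 0.11 with group means removed and -0.53 without the same 2 mice. The part of depth in these relations was not tested.

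**Figure D3:**
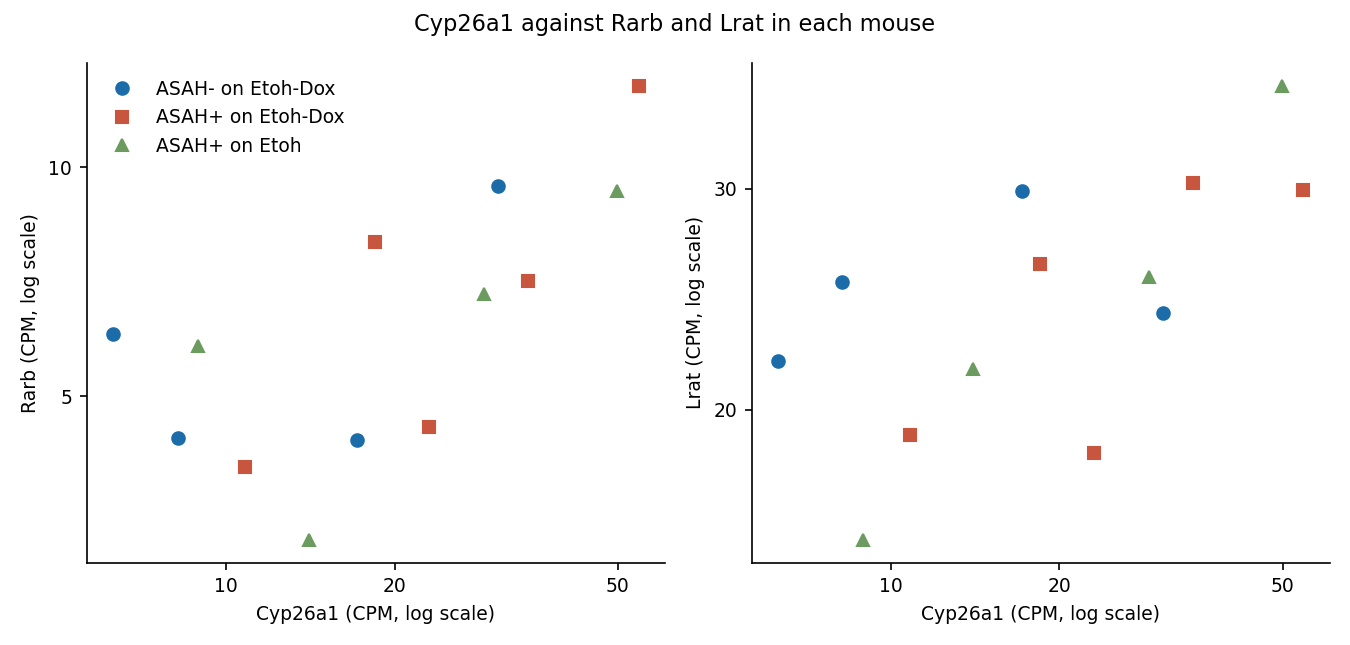
Rarb (left) and Lrat (right) against Cyp26a1 in each of the 13 mice, in CPM on log scales, with 1 point per mouse and a symbol for each group. Points rise from lower left to upper right in both plots (Pearson r of log2 CPM 0.680 and 0.651), with the groups intermixed.

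Because Cyp26a1 and Rarb varied together and are textbook targets of retinoic acid receptors, their promoters are shown. RefSeq windows (GRCm38.p6) from 250 bases before to 50 bases after a transcript start were found for 8 of the 9 members, 12 windows in all. They were searched on both strands for direct repeats of AGGTCA or of AGTTCA or of GGTTCA or of GGGTCA, in any combination, with 1, 2 or 5 bases between them, the spacings that retinoic acid receptors are known to bind; the motif was chosen after the sequences had been read. With a spacing of 5, a repeat was found for 2 of the 8 members, Cyp26a1 and Rarb. Over all windows it was found for 31 of 27025 genes, or 0.115% (32 of 32851 windows, 0.0974%). Since the elements searched were chosen with these promoters in view, nothing is read from the members' count against that share. Spacings of 1 and 2 occur in 0.222% and 0.268% of all windows and in none of the members' windows. Read in the direction of the repeat, with its elements in capitals, the matches are:
Rarb: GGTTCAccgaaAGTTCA
Cyp26a1: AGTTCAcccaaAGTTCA
The repeat of Rarb lies at positions -53 to -37 from the start, on the strand of the gene (chr14:16575513-16575529). That of Cyp26a1 lies at -32 to -16 on the opposite strand (chr19:37697776-37697792). The 250 bases before each start, on the strand of the gene and with the same elements in capitals, are chr19:37697558-37697807 (plus strand) for Cyp26a1 and chr14:16575477-16575726 (minus strand) for Rarb:
Cyp26a1: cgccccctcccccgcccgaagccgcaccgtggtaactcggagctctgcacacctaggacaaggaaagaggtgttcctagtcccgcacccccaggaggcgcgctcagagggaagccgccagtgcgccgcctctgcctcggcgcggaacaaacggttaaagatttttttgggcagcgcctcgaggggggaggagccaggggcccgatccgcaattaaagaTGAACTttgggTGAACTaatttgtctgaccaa
Rarb: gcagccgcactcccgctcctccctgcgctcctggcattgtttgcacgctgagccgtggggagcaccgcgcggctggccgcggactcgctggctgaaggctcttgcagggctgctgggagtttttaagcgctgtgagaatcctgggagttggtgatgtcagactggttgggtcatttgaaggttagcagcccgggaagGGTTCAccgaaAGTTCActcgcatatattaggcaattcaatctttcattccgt
In the Cyp26a1 sequence the elements appear as their reverse complement. The windows of Lrat and of the other 5 members held no such repeat. A match describes the sequence and does not show binding in these livers.

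**Figure D4:**
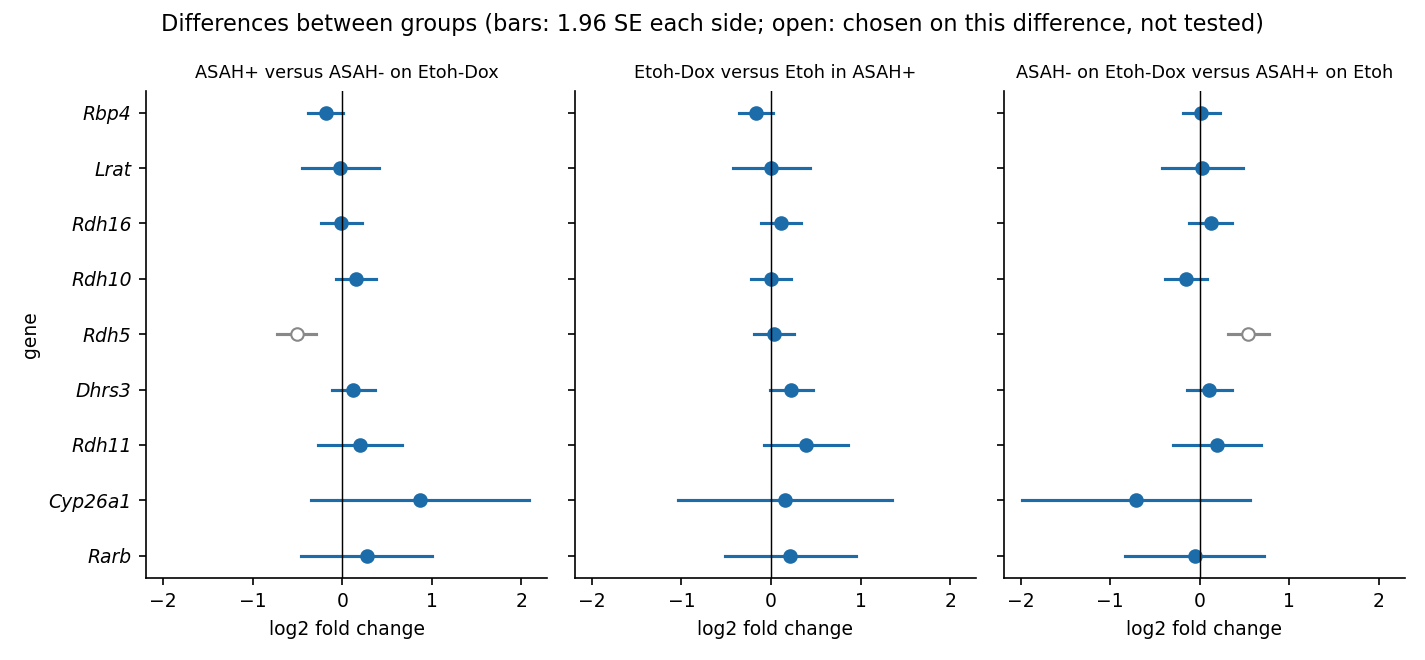
Log2 fold change of each member (horizontal axes) in the 3 comparisons, with bars for the 95% interval; open grey symbols mark Rdh5 where it was chosen on the difference shown and not tested. Bars of the tested differences all reach 0, and those of Cyp26a1 are the widest, with 0.87 ± 0.622 (SE) between ASAH+ Dox and ASAH- Dox mice.

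Other genes of the pathway were taken from a list of 53, of which 41 passed the filter on low counts. By edgeR 0 of 41 were called between ASAH+ Dox and ASAH- Dox mice, 0 with against without Dox in ASAH+ mice, and 0 between ASAH- Dox mice and ASAH+ no-Dox mice. At an unadjusted p under 0.05 the counts were 2, 3 and 1 of 41, beside 2.86%, 7.29% and 9.19% of all genes tested. DESeq2 on all 13 mice called 0, 1 and 1 of them (it gave an adjusted p to 41, 22 and 38), beside 12, 95 and 150 calls over all genes, or 0.0756%, 2.97% and 1.49% of those given an adjusted p. By limma-voom 0 were called in each comparison. Log2 fold changes were above 0 for 26, 23 and 22 of the 41 genes and below 0 for 15, 18 and 19, with medians of 0.035, 0.016 and 0.025 beside -0.0023, 0.013 and 0.016 for all genes tested.

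Of these genes, the 5 with the most counts per length were Ttr, the carrier that holds RBP4 in plasma (4046 CPM per kilobase), Adh1 (897.9), the retinol dehydrogenase Rdh7 (598.5), the carboxylesterase Ces1d (302.1) and Hsd17b6 (248.3), an enzyme of retinol and steroid oxidation. None of the 5 had a difference between groups that passed the test, and Rdh7 had group means of 1013 ± 48.1, 986.8 ± 107.1 and 1018 ± 70.96 CPM (SD). Groups did not overlap for 1 of 41 genes between ASAH+ Dox and ASAH- Dox mice, beside 0.887% of all genes, and for 2 of 41 between ASAH- Dox mice and ASAH+ no-Dox mice, beside 5.50%. With against without Dox it was 0 of 41, beside 2.58%.

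The first of these was Rarres2, the gene of the adipokine chemerin, named for its response to a retinoid. It had 378.1, 415.9, 380.4 and 381.2 CPM in ASAH- Dox and 355.4, 331.4, 309.1, 325.2 and 376.9 CPM in ASAH+ Dox mice, and 389.5, 367.6, 426.3 and 424.2 CPM in ASAH+ no-Dox mice. The ASAH+ Dox mice were lowest, with 1 overlapping the ASAH+ no-Dox mice, and the log2 fold changes against ASAH- mice and against ASAH+ no-Dox mice were -0.20 ± 0.0792 and -0.24 ± 0.0791 (SE; edgeR, Benjamini-Hochberg adjusted p = 0.9997 and 0.534). Aldh8a1, a retinal dehydrogenase that prefers 9-cis retinal, was 270.1 to 308.3 CPM in the ASAH- mice and 309.3 to 340.7 CPM in the ASAH+ no-Dox mice, with a log2 fold change of -0.13 ± 0.0703 (SE).

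**Figure D5:**
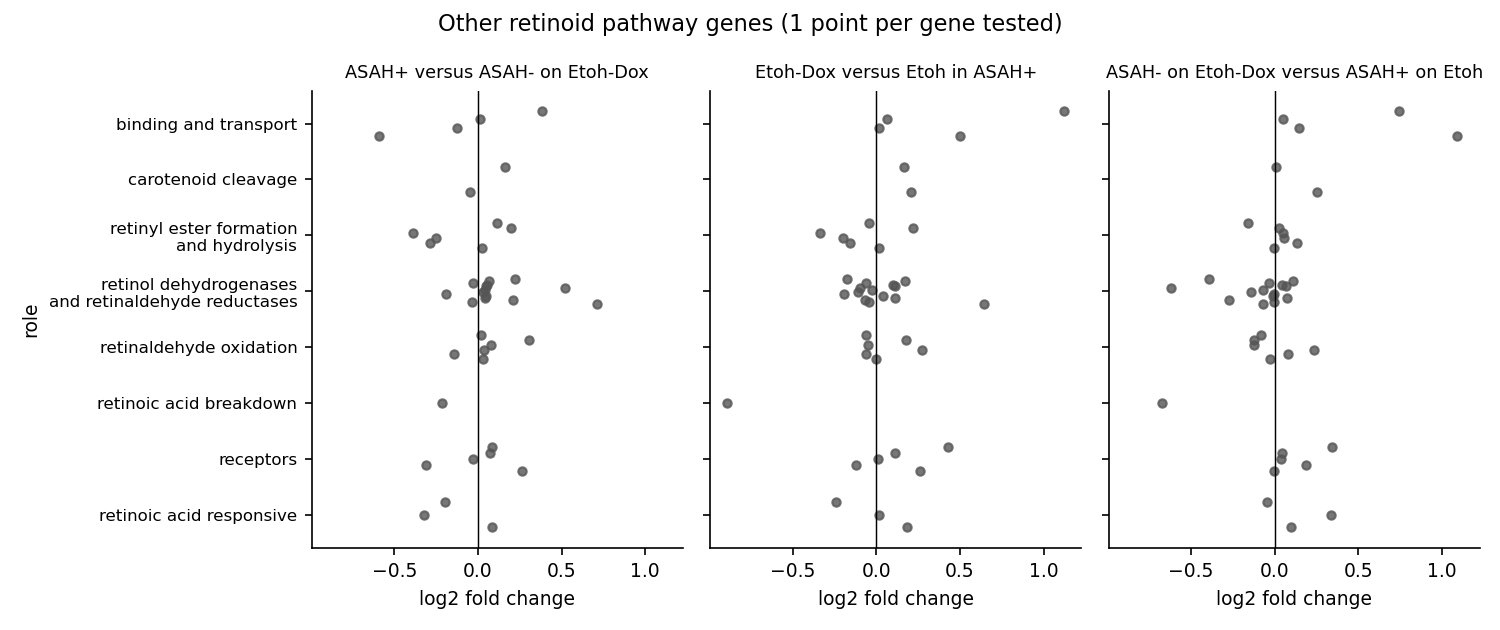
Log2 fold change (horizontal axes) of the 41 other retinoid pathway genes tested, 1 point per gene, grouped by role, in the 3 comparisons. Points lie on both sides of 0 in most roles, and the highest with against without Dox in ASAH+ mice is Fabp5 (1.12), whose difference did not pass edgeR's test.

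Marker genes matched the labelled tissue. All 10 hepatocyte markers passed the filter, with a summed level of 100500 to 152400 CPM per mouse and Alb the most abundant. Markers of the other liver cells were also present, with 9 of 9 sinusoidal endothelial genes (177.6 to 363.2 CPM in sum, Ptprb highest), 8 of 8 Kupffer cell genes (Cd5l highest) and 5 of 6 cholangiocyte genes (31.8 to 79.5 CPM, Spp1 highest). The Kupffer cell sum was 424.5 to 865.5 CPM in the ASAH- Dox mice, 311.8 to 598.9 CPM in the ASAH+ Dox mice and 320.2 to 399.9 CPM in the ASAH+ no-Dox mice. As for Rdh5, every ASAH- mouse was above every ASAH+ no-Dox mouse, but the ASAH+ Dox mice overlapped both groups, and the part of these cells in the level of Rdh5 was not tested. Red cell genes were 128.3 to 179.8 CPM in the ASAH+ no-Dox mice and 198.9 to 1560 CPM in both Dox groups, with Hbb-bs highest. Lymphocyte and neutrophil genes summed to at most 4.68 CPM, with 6 of 6 tested and S100a9 highest. Of the adipocyte genes, Adipoq, Lep and Plin1 had under 3 counts in every mouse, and Cidec, which hepatocytes can also express, made up most of a sum of at most 3.58 CPM. Exocrine pancreas genes summed to at most 0.822 CPM, with Cela2a highest and Cpa1 and Pnlip under 3 counts in every mouse.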

How the data were processed

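Liver RNA libraries (poly(A)-selected, TruSeq Stranded) of 13 mice were sequenced by the authors, mapped with Salmon to GENCODE mouse transcripts on GRCm38.p6 and summarized by gene with tximport. What the authors deposited were estimated counts, unscaled, of which 100% are whole numbers. Of the 53392 genes, 28557 had any count, and 53355 identifiers were found in GENCODE M21, which gave positions and exon lengths. Groups were taken from descriptions and induction labels. The members and gene lists were chosen with earlier results of these data known. Within-group libraries all differed (chi-square 17.3 to 95.4 times its degrees of freedom over 22 pairs).

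In R 4.3.3, edgeR 4.0.16 was run on all 13 mice with its count filter, TMM, 3 group means and robust quasi-likelihood tests, with Benjamini-Hochberg adjustment over 14317 genes and a threshold of 0.1. Correlations used log2 CPM with a prior count of 2. The genes named were the 9 members, pathway genes that were called, did not overlap between groups or were among the 5 highest per length, the 5 genes most like Rdh5 and the gene most like each other member (mean log2 CPM above 1), Asah1, Dbp, Arntl and the top gene of each marker list. Bloc1s1, Rab5b, Dnajc14, Top2b, Rdh9 and Fabp5 were named after their values were seen.

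Alternatives were DESeq2 1.42.0 with all mice fitted or the compared groups alone, edgeR on the groups compared, DESeq2 size factors, limma-voom (limma 3.58.1), no count filter, a minimum of 10 counts per mouse, library totals without Asah1, no robust dispersion, a replicate block, the Dbp to Arntl ratio as a covariate, a threshold of 0.05, sums with overlapping genes, and each mouse left out. The fits were tested on counts simulated once per comparison from edgeR's own dispersion estimates, with 200 genes changed 2-fold. At the threshold of 0.1, 21.76% to 27.45% of DESeq2's calls there were false. For edgeR it was 8.497% to 9.22%, and for limma-voom 6.04% to 10.49%. Because the counts were drawn from edgeR's model, the simulation cannot rank the tools on these data. Tables and figures used Python 3.11.15, pandas 2.3.3 and matplotlib 3.10.9.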

Additional observations from a re-analysis of the deposited data

Results flagged for a closer look

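In the 27 combinations of a member and a group, no mouse stood apart from the rest of its group by Dixon's criterion, which chance alone passes in about 1 in 20 groups.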

How the results depend on the processing

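The count of members called was 0 in each comparison under each alternative tried, among them limma-voom, each mouse left out and DESeq2, which with all mice fitted gave no adjusted p to 5 of 9 members with against without Dox. The count of other pathway genes called was 0 except by DESeq2, which called 1 with against without Dox (Rarres2 with all mice fitted, Fabp5 with the compared groups alone) and 1 between ASAH- Dox mice and ASAH+ no-Dox mice; the cause was not tested. The Asah1 log2 fold change between ASAH+ Dox and ASAH- Dox mice stayed between 7.91 and 8.10. Over all genes, where edgeR called 2 in each comparison, DESeq2 called 12, 95 and 150 with all mice fitted and 11, 113 and 168 with the compared groups alone, edgeR on the groups compared 1, 3 and 0, the fit without a count filter 2, 4 and 2, that without Asah1 1, 1 and 2, that with the clock covariate 2, 2 and 1, and a threshold of 0.05 left 2, 2 and 0. Leaving out single mice gave 1 to 2, 2 to 8 and 0 to 2, the 8 without mouse 2 of the ASAH+ no-Dox group; the count of 1 arose without mouse 1, 3 or 4 of the ASAH- group, and the last count stayed at 2 only without mouse 4 of that group.

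Of 654 alternative log2 fold changes of members, 53 changed sign, and 16 of 27 differences never changed sign. Among those with an adjusted p, 0 crossed the threshold. None was computed for Rdh5 in the comparisons on which it was chosen. DESeq2 with all mice fitted gave none to 5 of 9 members with against without Dox. Summed with Bloc1s1, Rdh5 was 0.22 with against without Dox, beside 0.034 alone. With single mice left out, between ASAH+ Dox and ASAH- Dox mice the range was -0.079 to 0.036 for Rdh16, -0.037 to 0.56 for Rarb and -0.10 to 0.077 for Lrat. With against without Dox it was -0.043 to 0.087 for Rdh5, -0.083 to 0.073 for Rdh10, -0.24 to 0.71 for Cyp26a1, -0.10 to 0.46 for Rarb and -0.17 to 0.24 for Lrat. Between ASAH- Dox mice and ASAH+ no-Dox mice it was -0.035 to 0.080 for Rbp4, -0.35 to 0.19 for Rarb and -0.14 to 0.27 for Lrat. Without a count filter Rdh16 was 0.0012 between ASAH+ Dox and ASAH- Dox mice. With against without Dox, Rdh10 and Lrat were -0.012 and -0.0090 by DESeq2 with all mice fitted, -0.010 and -0.0082 with the compared groups alone, -0.010 and -0.0077 with its size factors, -0.0061 and -0.0053 without Asah1, and -0.049 and -0.042 with the clock covariate, under which Lrat was -0.011 between ASAH- Dox mice and ASAH+ no-Dox mice. These values changed sign close to 0, and the cause was not tested. Group means on DESeq2 size factors moved by less than 1 SD in 27 of 27 cases. Of the 5 genes most like Rdh5, 4 were among the first 5 by Spearman and 2 by deviations from group means.

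Replicate numbers come from titles and belong to different animals, and deviations of same-numbered mice had a mean r of -0.046 over 12 pairs, so the mice were not treated as paired. With a replicate block 0 members and 0 other pathway genes were called in each comparison, the Asah1 log2 fold change was 7.91, and all genes called were 1, 2 and 0. Under the block, Lrat was 0.048 between ASAH+ Dox and ASAH- Dox mice, Rdh10 was -0.017 with against without Dox, and Rarb was 0.034 between ASAH- Dox mice and ASAH+ no-Dox mice. Precision was lowest for Cyp26a1 (SE 0.622 between the Dox groups) and Rarb (56 to 463 reads per mouse).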
